A study of Rattus norvegicus with 6 samples.

Results

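The genes described here encode proteins of the synapse: 32 genes of synaptic vesicles, of the SNARE fusion machinery, of the presynaptic active zone, of trans-synaptic adhesion and of the postsynaptic scaffold. They were picked by gene symbol and role, and all 32 were found among the 14217 genes that had a probe set of their own on the array, with each gene read from its probe set of highest mean signal. Messenger RNA was measured with Affymetrix rat expression arrays in dissociated spinal cord cultures of newborn rats, aged P1 to P4, after 8 days in vitro. The 3 CNT cultures grew on coverslips coated with multi-walled carbon nanotubes and the 3 control cultures on coverslips coated with polyornithine, with 1 array for each culture and 5 ng/mL nerve growth factor in the medium of both. No allele or drug is named for either group, and the strain is given as Sprague-Dawley in the sample labels and as Wistar in the study's methods. The question is whether growth on nanotubes changed the RNA of the synaptic machinery. The cultures hold neurons together with glia and connective tissue cells, so in these bulk samples fewer neurons and less synaptic RNA per neuron cannot be told apart. All values are log2 RMA expression values, and a difference of 1 is a 2-fold change.

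At a chemical synapse an action potential opens calcium channels of the presynaptic terminal, and calcium binding to synaptotagmin triggers the fusion of docked vesicles with the plasma membrane. Fusion is driven by the SNARE proteins synaptobrevin on the vesicle and SNAP25 and syntaxin on the target membrane, while active zone proteins dock and prime vesicles at the release site. Neurexins on the axon and neuroligins on the dendrite bind each other across the cleft, and PSD-95 and Shank proteins hold receptors in place beneath the postsynaptic membrane.

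Promoter sequence is shown for the members that hold a cAMP response element, Vamp1 and Syn1, and for Sv2b, which varied widely between cultures and holds none. The sequences are the 250 bases before each gene's RefSeq start in build GRCr8, read 5′ to 3′ on the gene's strand, at chr4:159698644-159698893 (plus strand) for Vamp1, chrX:3725495-3725744 (plus strand) for Syn1 and chr1:138562259-138562508 (minus strand) for Sv2b. Capitals mark the palindromic cAMP response element TGACGTCA, the site that the activity-regulated factor CREB binds.
Vamp1: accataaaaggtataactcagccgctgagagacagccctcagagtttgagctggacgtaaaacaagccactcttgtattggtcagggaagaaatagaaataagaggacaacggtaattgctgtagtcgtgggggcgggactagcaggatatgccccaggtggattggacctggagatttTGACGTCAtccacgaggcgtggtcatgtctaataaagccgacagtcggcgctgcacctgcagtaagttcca
Syn1: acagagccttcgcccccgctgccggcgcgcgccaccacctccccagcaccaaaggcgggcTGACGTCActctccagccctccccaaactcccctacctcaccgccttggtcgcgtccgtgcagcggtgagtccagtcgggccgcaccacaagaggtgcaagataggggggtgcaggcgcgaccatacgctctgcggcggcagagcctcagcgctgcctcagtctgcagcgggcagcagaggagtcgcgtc
Sv2b: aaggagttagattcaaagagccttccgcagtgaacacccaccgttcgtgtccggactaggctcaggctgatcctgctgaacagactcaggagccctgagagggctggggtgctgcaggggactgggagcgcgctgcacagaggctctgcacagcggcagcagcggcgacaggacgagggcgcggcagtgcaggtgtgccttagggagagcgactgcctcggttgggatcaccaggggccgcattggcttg
Counted back from the start, the first base of the element stood at -71 in Vamp1 and at -190 in Syn1, and the Sv2b window held none. Vamp1 and Syn1 are among 7 members that were lowest on CNT 3 and control 3 by the probe set used, Vamp1 by only 0.01. Vamp2, Syt11, Rab3a and Nlgn1 of those 7 had no match in this window. Of the 26 members with a promoter in the RefSeq table, these 2 held it (7.69%), against 1.59% of all 33469 promoters. The GC box core GGGCGG, searched on both strands, was present in 18 of the 26 (69.2%), against 30.5% of all promoters. Both shares of all promoters count every entry of the RefSeq table, with no limit to the genes tested on the array. Snap25, Rims2, Nrxn2, Nrxn3, Shank1 and Shank2 had no entry. These matches describe the sequence only.

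The arrays differed in technical measures, also between arrays of the same substrate. The signal of the beta-actin 3′ probe set exceeded that of the 5′ probe set, a sign of incomplete or degraded RNA when large, by 0.92, 2.20 and 1.72 on CNT 1, 2 and 3 and by 2.20, 0.62 and 0.66 on control 1, 2 and 3. The poly-A RNAs of bacterial genes, which the array's control probe sets detect as spikes, averaged 8.31, 10.67 and 11.34 on the CNT arrays and 7.65, 7.09 and 11.40 on the control arrays, so CNT 2, CNT 3 and control 3 formed a set of higher spike signal. Over all genes CNT 3 correlated best with control 3 (r = 0.994 across genes, which are not independent replicates), above either correlation of CNT 3 within its own group. The labels do not say whether the numbers mark cultures made together, and the biological replicates they name are taken as separate cultures. The study's methods name 3 culture series for each condition and do not say which arrays share a series.

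No difference between CNT and control cultures was detected in any of the 32 synaptic genes. By mean signal 19 of the 32 (59.4%) were among the dimmest 30% of genes, where small changes may not have been detectable. These 19 include Nlgn2 and all 5 active zone genes. In limma, fitted over all 14217 genes, the smallest adjusted p among the members was 0.999, and 0 genes of the whole array passed the threshold of 0.05 (0% called). At an unadjusted limma threshold of 0.05, 0 members passed in either direction, where 2.41% of all genes passed upward in CNT and 0.71% downward. The means were higher in CNT for 17 members and lower for 15, against 58.5% higher over all genes. The split turned to 13, 12 and 14 members higher after quantile normalization, cyclic loess and median centring. The shares of all genes under these scalings are not given here. Median centring moves the difference of every gene by the same amount, so its shift is not particular to the members. The median log2 difference, CNT minus control, was 0.02 over the members and 0.03 over all genes. The median over the members was below 0 under each of the same 3 scalings.

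The mean over the 32 genes was nearly the same on all CNT arrays, at 8.11, 8.12 and 8.12 on CNT 1, 2 and 3, against 8.07, 8.19 and 8.18 on control 1, 2 and 3. The group means were 8.12 ± 0.01 in CNT and 8.15 ± 0.06 in control cultures (SD, n = 3 each), a difference of -0.03 that is smaller than the spread of the control arrays, with every CNT value between the lowest and the highest control value. In the main limma fit, on the probe set used, no member changed on average by 1.5-fold or more. Of all genes, 4.24% reached that size in either direction. Some members passed it under alternatives given below. The 95% interval of the difference lay within 2-fold for 27 of the 32 members (84.4%), against 86.4% of all genes. It lay within 1.5-fold for 17 members (53.1%), against 63.6% of all genes. The interval spanned 0 for all 32 members, as for 96.9% of all genes. With 3 arrays a group, the intervals of Snap25, Sv2b, Nrxn2, Nlgn2 and Napb did not exclude a 2-fold change.

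**Figure D1:**
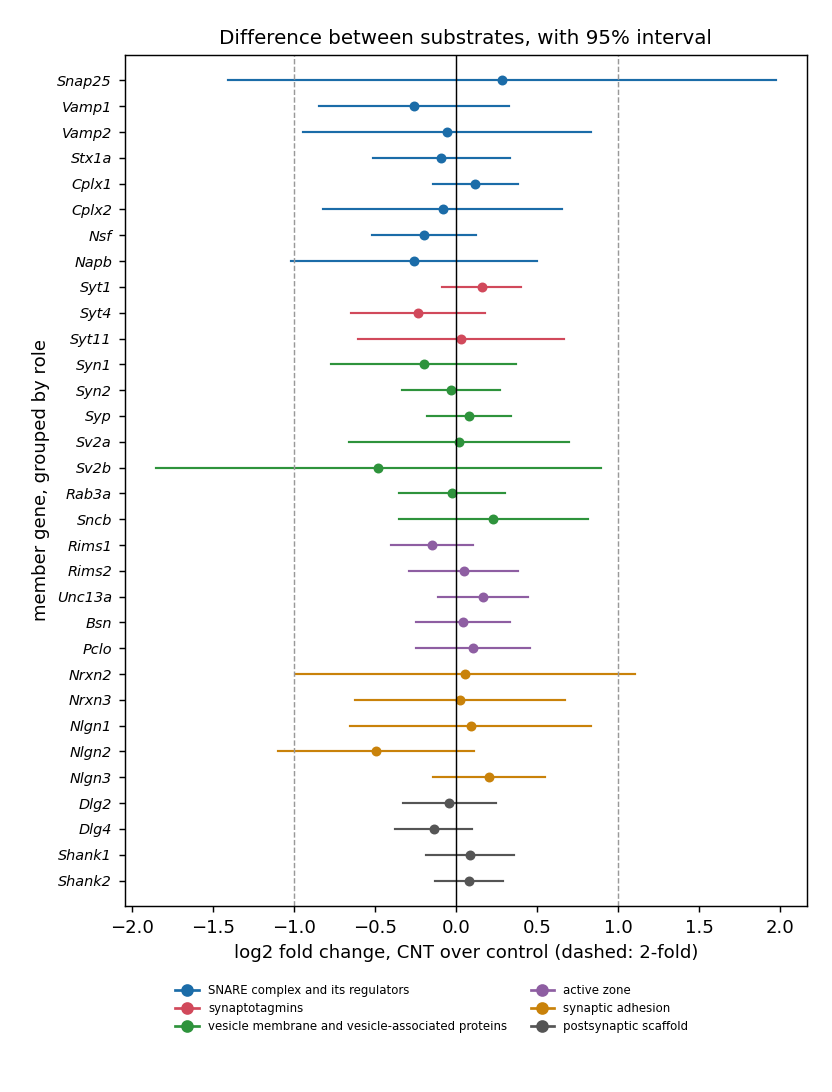
Log2 fold change of CNT over control cultures for each of the 32 synaptic genes (points) with the 95% interval from limma (lines), coloured and ordered by role. Every interval crosses 0, the points lie between -0.49 for Nlgn2 and 0.28 for Snap25, and the widest intervals belong to Snap25 and Sv2b.

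Of the 8 genes of the SNARE complex and its regulators, 2 were higher and 6 lower in CNT by their means, none past the test. Snap25, the SNARE of the plasma membrane that forms a complex with syntaxin and synaptobrevin, read 9.03, 9.06 and 10.53 on CNT 1, 2 and 3 and 8.31, 8.84 and 10.62 on control 1, 2 and 3. The groups overlapped fully, and the third array of each substrate exceeded all the others by 1.47. The difference between substrates was 0.28 (SE 0.70, interval -1.41 to 1.97, adjusted p = 0.999 by limma), and it turned negative when CNT 3 (-0.21) or control 1 (-0.19) was left out. Of all genes, 0.359% had CNT 3 and control 3 more than 1 log2 above every other array, and Snap25 was the 1 member among them. Within the set of lower spike signal Snap25 was 0.45 higher on CNT 1 than on the mean of control 1 and 2, and within the higher set the mean of CNT 2 and 3 differed from control 3 by -0.83.

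Nsf, the ATPase that takes spent SNARE complexes apart, had the smallest unadjusted p of this group. It read 10.80, 10.60 and 10.74 on the CNT arrays and 10.70, 11.09 and 10.95 on the control arrays, a difference of -0.20 (SE 0.13, adjusted p = 0.999 by limma). Control 1 lay inside the CNT range and the other controls above it. The arrays of small beta-actin difference, CNT 1, control 2 and control 3, were the 3 highest for Nsf, and with that difference as a covariate the substrate difference was -0.11; the part of RNA quality in it was not tested further. Napb, the beta form of the SNAP adaptor that brings Nsf to the complex, read 7.75, 7.03 and 7.89 in CNT and 7.51, 7.62 and 8.34 in control cultures (-0.26, SE 0.31), with its 2 highest values again on the third arrays.

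The synaptobrevins, the SNAREs of the vesicle, did not follow Snap25. Vamp1 read 9.64, 9.41 and 8.94 in CNT and 9.41, 9.97 and 9.39 in control cultures (-0.26, SE 0.24), and Vamp2, the main form at central synapses, read 10.02, 9.40 and 9.11 in CNT and 9.47, 10.21 and 9.01 in control cultures (-0.06, SE 0.37). Both were lowest on the third arrays, where Snap25 was highest. Stx1a, the syntaxin of the plasma membrane, differed by -0.09. The complexins, which clamp and then promote fusion of primed vesicles, differed by 0.12 for Cplx1 and by -0.08 for Cplx2.

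The 3 synaptotagmins split, with Syt1 and Syt11 higher and Syt4 lower in CNT by their means. Syt1, the calcium sensor of fast release, read 6.10, 6.26 and 6.04 on the CNT arrays and 5.95, 6.03 and 5.94 on the control arrays. The lowest CNT array was just above the highest control array, a separation seen in this direction for 5.94% of all genes. The difference was 0.16 (SE 0.10, adjusted p = 0.999 by limma), and its signal was among the dimmest 30% of genes. Syt4, an activity-regulated form with altered calcium binding, read 11.80, 12.15 and 11.98 in CNT and 12.12, 12.51 and 12.01 in control cultures (-0.24, SE 0.17), with CNT 2 inside the control range. Syt11, a related form that is not a calcium sensor, differed by 0.03.

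Of the 7 genes of the vesicle membrane and of proteins bound to vesicles, 3 were higher and 4 lower in CNT. Sv2b, a transporter-like glycoprotein of the vesicle membrane, read 9.83, 10.77 and 11.63 on CNT 1, 2 and 3 and 11.38, 10.37 and 11.93 on control 1, 2 and 3. Its range of 2.09 over the 6 arrays far exceeded the difference of -0.48 between substrates (SE 0.56, interval -1.85 to 0.89, adjusted p = 0.999 by limma), which was -0.03 without CNT 1 and -0.93 without CNT 3. Its highest values were again on CNT 3 and control 3. Sncb, beta-synuclein of the presynaptic terminal, had the smallest unadjusted p of this group, with 7.45, 7.32 and 8.03 in CNT and 7.13, 7.28 and 7.71 in control cultures (0.23, SE 0.24). Here too the third arrays were the highest, and the difference was 0.02 without CNT 3.

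The synapsins, which tether vesicles in the reserve pool, differed by -0.20 for Syn1 and -0.03 for Syn2. Syn1 read 8.70, 8.64 and 8.07 in CNT and 8.67, 8.99 and 8.35 in control cultures, lowest on the third arrays as for Vamp1. Synaptophysin (Syp), an abundant membrane protein of vesicles that is widely used to stain presynaptic terminals, varied little, with 9.02, 9.06 and 8.93 in CNT and 8.78, 9.04 and 8.96 in control cultures (0.08, SE 0.11). Sv2a, the paralogue of Sv2b, differed by 0.02, and Rab3a, the small GTPase of synaptic vesicles, differed by -0.03.

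Of the 5 active zone genes, 4 were higher and 1 lower in CNT, by at most 0.17. Unc13a (Munc13-1), which primes docked vesicles by opening syntaxin, read 6.14, 6.03 and 5.92 in CNT and 5.72, 5.98 and 5.88 in control cultures (0.17, SE 0.11, adjusted p = 0.999 by limma), with CNT 3 inside the control range. The large scaffold proteins Bassoon (Bsn) and Piccolo (Pclo) differed by 0.04 and 0.10. Rims2 and Rims1, which link Rab3 on vesicles to calcium channels, differed by 0.05 and by -0.15. The mean over these 5 genes was 6.36, 6.36 and 6.26 on CNT 1, 2 and 3 and 6.27, 6.28 and 6.31 on control 1, 2 and 3, and CNT 3 lay below every control array.

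Among the 5 adhesion genes, 4 were higher and 1 lower in CNT. The lower one, Nlgn2, the neuroligin of inhibitory synapses, had the largest difference and the smallest p of all 32 members. It read 7.28, 8.01 and 7.99 on the CNT arrays and 8.55, 7.99 and 8.22 on the control arrays, with control 2 inside the CNT range. The difference was -0.49, a fold change of 0.71 (SE 0.25, interval -1.10 to 0.11, unadjusted p = 0.093 and adjusted p = 0.999 by limma). It rested on CNT 1 and control 1, the lowest and highest arrays, and was -0.25 without CNT 1. The second Nlgn2 probe set differed by 0.11.

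Nlgn3 and Nlgn1, the neuroligins of both synapse types and of excitatory synapses, differed by 0.20 and 0.09. Nrxn2, a presynaptic partner of the neuroligins, read 11.09, 10.77 and 9.90 in CNT and 10.27, 11.29 and 10.04 in control cultures (0.06, SE 0.43), lowest on the third arrays. Nrxn3 ran the other way, with 7.70, 7.78 and 8.18 in CNT and 7.65, 7.52 and 8.41 in control cultures (0.02, SE 0.27), highest on the third arrays.

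The 4 postsynaptic scaffold genes differed by 0.14 or less in size. Dlg4 (PSD-95), the main scaffold of excitatory synapses, read 9.36, 9.59 and 9.48 in CNT and 9.63, 9.63 and 9.59 in control cultures. The groups did not overlap, with CNT 2 just below control 3 and the other CNT arrays lower, as was so for 2.05% of all genes, and the difference was -0.14 (SE 0.10, adjusted p = 0.999 by limma). Shank2, which joins PSD-95 complexes to the cytoskeleton, read 7.70, 7.70 and 7.78 in CNT and 7.61, 7.68 and 7.65 in control cultures, again without overlap and in the opposite direction (0.08, SE 0.09, adjusted p = 0.999 by limma). On the other probe sets of both genes the groups overlapped. The difference was -0.12 on the second Shank2 probe set and -0.45, 0.19 and -0.06 on the other Dlg4 probe sets. Shank1 and Dlg2 (PSD-93) differed by 0.08 and -0.04. Over all members the groups did not overlap for 2 genes with CNT above and 1 with CNT below, shares close to those of all genes.

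**Figure D2:**
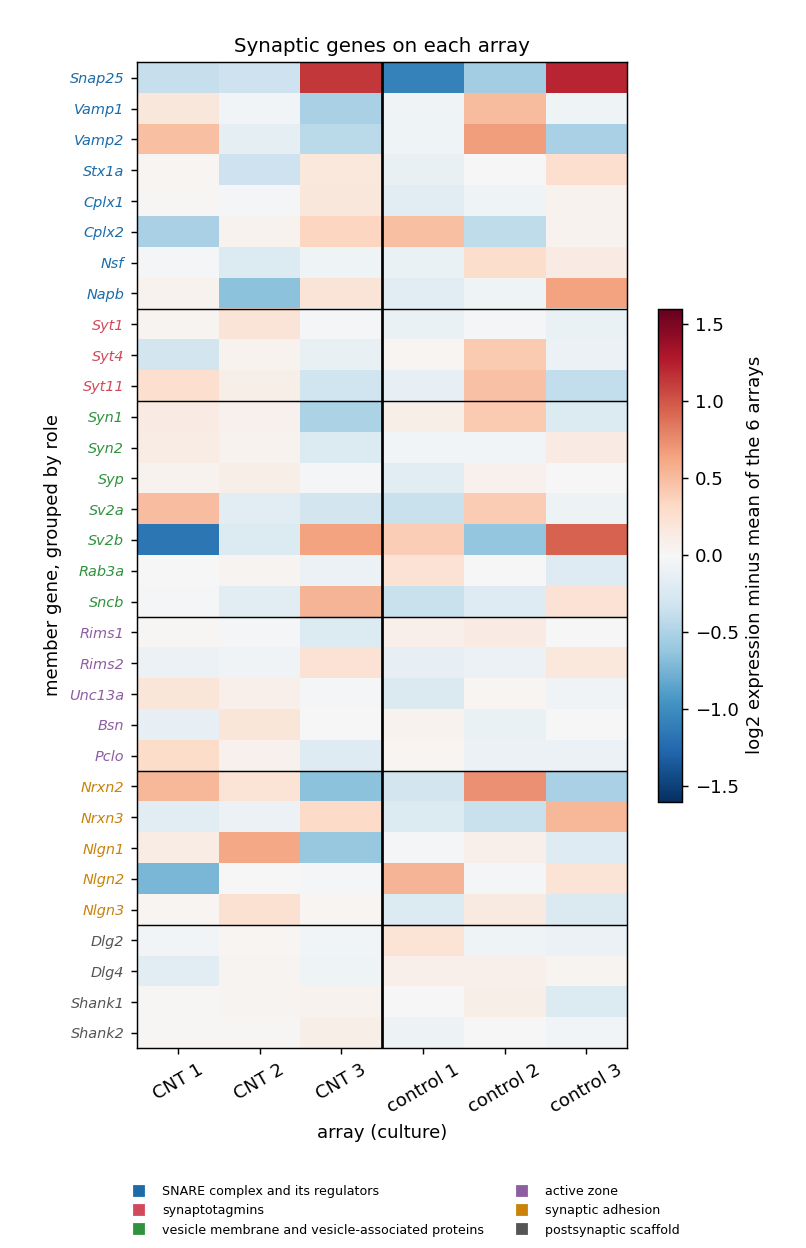
Log2 expression of each synaptic gene on each array minus its mean over the 6 arrays (colour), with CNT arrays left of control arrays and genes grouped by role. The strongest colours belong to Snap25, high on CNT 3 and control 3 and low on control 1, and to Sv2b, low on CNT 1, and every role group shows both colours on both substrates.

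Cultures of the same substrate also differed in these genes. For 22 of the 32 members (68.8%) the difference between the group means was smaller than the pooled SD, no more often than over all genes (74.3%). A span of more than 1 log2 over the 6 arrays was seen for 9 members (28.1%) and for 17.6% of all genes. CNT 3 and control 3 were the 2 highest arrays for 8 members (25%), namely Snap25, Stx1a, Cplx1, Napb, Sv2b, Sncb, Rims2 and Nrxn3, against 11.5% of all genes. All of these except Snap25 and Sv2b were among the dimmest 30% of genes. CNT 3 and control 3 were the 2 lowest for 7 members (21.9%), namely Vamp1, Vamp2, Syt11, Syn1, Rab3a, Nrxn2 and Nlgn1, against 22.5% of all genes. Of these only Syt11 was among the dimmest. These positions hold for the probe set used. No other probe set of Stx1a, Cplx1, Sv2b, Sncb or Nrxn3 had CNT 3 and control 3 as the 2 highest arrays. On the second Sncb probe set they were the 2 lowest, at 5.71 and 5.67. No other probe set of Vamp1, Vamp2, Syn1, Rab3a, Nrxn2 or Nlgn1 had them as the 2 lowest. Snap25, Napb, Rims2 and Syt11 had only 1 probe set. By the probe set used, the synaptic genes did not move together. Genes whose products act in one complex, such as Snap25 and Vamp2, stood at opposite ends on the same arrays. Rbfox3 (NeuN), a nuclear protein of mature neurons, was also highest on CNT 3 (7.80) and control 3 (7.72). Tubb3, a neuronal tubulin, was lowest on CNT 3 (9.20) and had 9.41 on control 3.

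**Figure D3:**
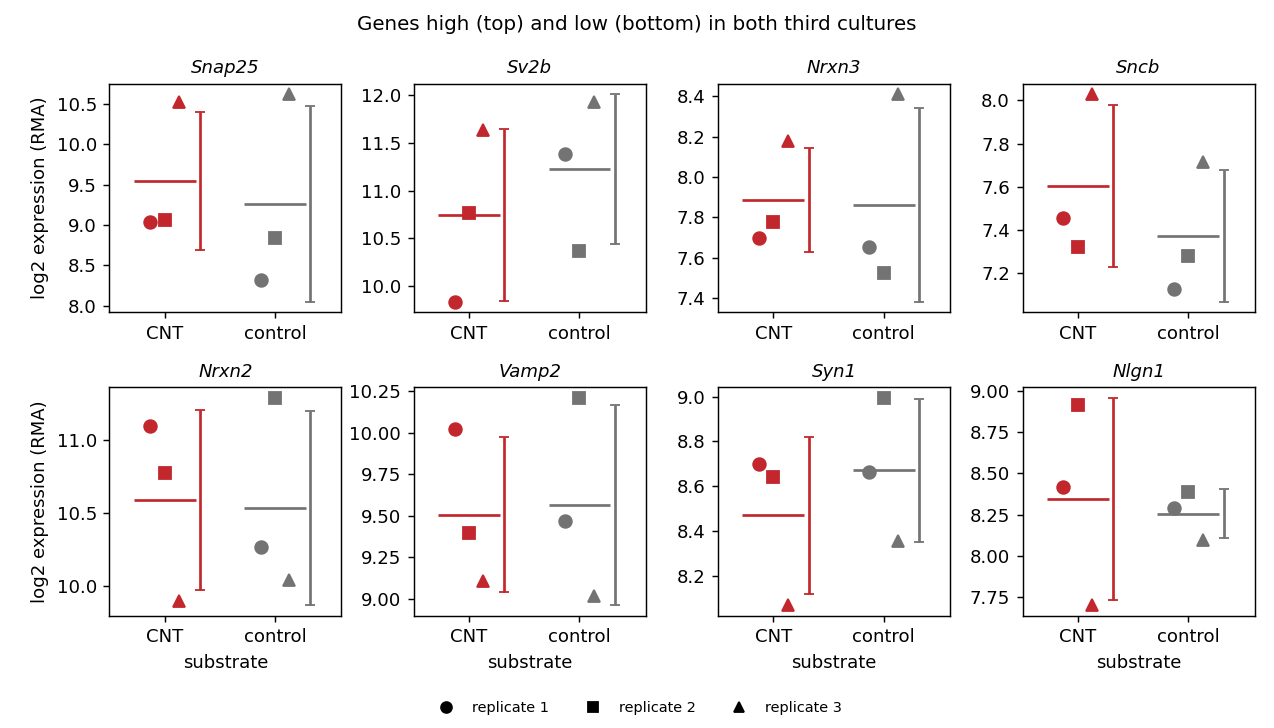
Log2 expression of 8 synaptic genes on each array, each gene by its probe set of highest mean. CNT is left of control, with 1 symbol for each replicate number. Horizontal lines are at the group means, with error bars of 1 SD (n = 3 each). The third replicate (triangle) is the highest of both substrates in the upper panels, such as 10.53 in CNT and 10.62 in control for Snap25, and the lowest of both in the lower panels.

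The technical measures moved with some of these genes, in shares near those of the whole array. The 3 arrays of higher spike signal, which include CNT 3 and control 3, were all above the others for Snap25, Rims2 and Nrxn3 (7.60% of all genes) and all below for Vamp2, Syn1 and Rims1 (7.75% of all genes), each 9.38% of the members. The 3 arrays of small beta-actin difference were all above the others for Nsf and Sv2a (3.76% of all genes) and all below for Bsn and Dlg2 (7.05% of all genes), each 6.25% of the members. The part of either measure in the values of these genes was not tested.

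Different probe sets of a gene gave different differences. The 32 genes had 60 probe sets, 21 genes had more than 1, and for 11 of these the direction of the difference depended on the probe set. The disagreement exceeded 0.3 for Dlg4, Nlgn2, Sv2b and Vamp1. The second probe set of Syt4 read 8.28, 7.57 and 7.77 on the CNT arrays and 8.14, 10.23 and 8.76 on the control arrays, with a difference of -1.17 (SE 0.54, adjusted p = 0.999 by limma) against -0.24 for the one used. Control 2 stood far above the other 5 arrays. The same array was the highest for the second probe set of Dlg4, which read 9.11, 9.16 and 8.78 in CNT and 8.91, 10.41 and 9.08 in control cultures (-0.45, SE 0.41).

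The second probe set of Rab3a read 7.72, 6.55 and 6.28 in CNT and 6.96, 8.38 and 6.82 in control cultures (-0.54, SE 0.55). The dimmest probe set of Vamp1 read 7.41, 6.96 and 6.66 in CNT and 6.93, 8.10 and 7.14 in control cultures (-0.38, SE 0.35). Control 2 was likewise the highest array for both. The second Sv2b probe set read 7.31, 6.79 and 6.14 in CNT and 6.27, 7.87 and 6.95 in control cultures. Its order over the CNT arrays was the reverse of that of the probe set used, which rose where this one fell. Control 2 had the smallest beta-actin 3′ to 5′ difference of the 6 arrays, and the part of RNA quality in these readings was not tested. By the probe set used, control 2 was the highest array for 10 of 32 members and for 15.7% of all genes. Of the 60 probe sets, 4 had every CNT array above every control array and 2 had every one below, near the 5.94% and 2.05% of all genes.

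**Figure D4:**
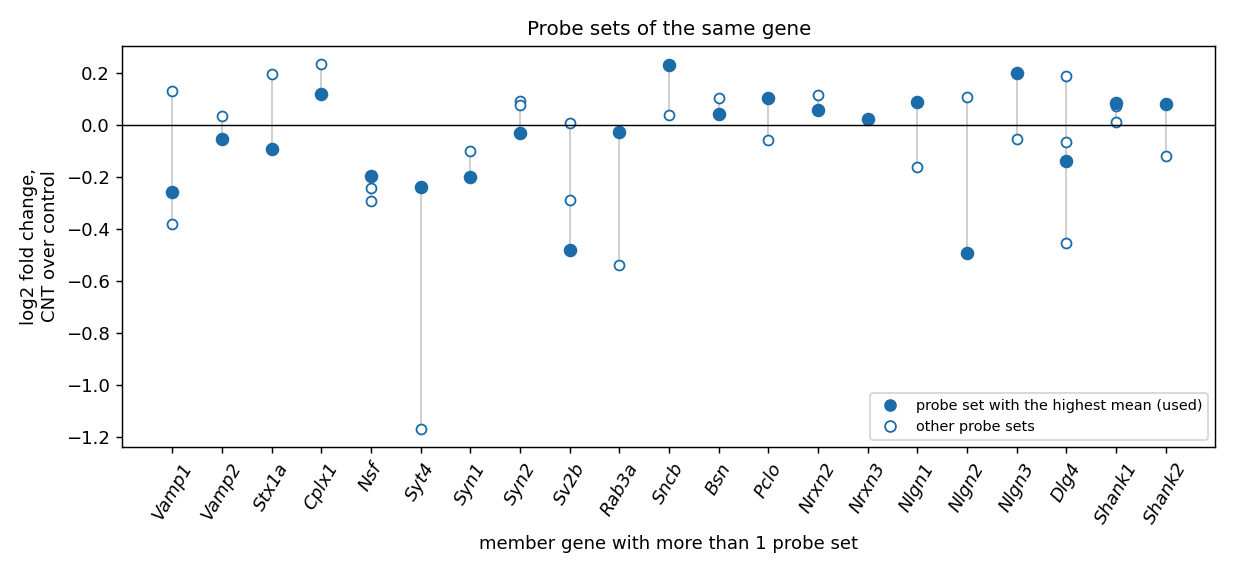
Log2 fold change of CNT over control for every probe set of the 21 synaptic genes with more than 1, with the probe set of highest mean filled and the others open. The second Syt4 probe set at -1.17 lies farthest from 0, and the sign differs between probe sets for 11 genes.

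Further genes of the synapse, from lists of the same roles, did not pass the test either. Of 47 further presynaptic genes 39 were on the array, with 25 higher and 14 lower in CNT, differences of -0.59 to 0.70, a median of 0.05 and 0 past the test. Over all genes 58.5% were higher in CNT. Without adjustment 1 of the 39, Rph3a, was under 0.05, where 2.41% of all genes passed upward in CNT. Every CNT array was above the control arrays for 2 of the 39, as for 5.94% of all genes. Rph3a (rabphilin), an effector of Rab3a, read 5.56, 5.66 and 5.52 in CNT and 5.34, 5.37 and 5.37 in control cultures, a dim but separated difference of 0.22 (SE 0.09, adjusted p = 0.999 by limma). Rimbp2, which ties Rim to calcium channels, and Gap43, a growth cone protein of extending axons, differed by -0.59 (SE 0.35) and 0.24 (SE 0.15). Of 32 further postsynaptic genes 25 were on the array, with 13 higher and 12 lower, a median of 0.02 and 0 past the test. The smallest p among them belonged to the scaffold genes Homer2, Dlg3 and Dlgap1, which differed by -0.35, -0.23 and -0.39.

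The neuron content of the cultures, as far as marker RNA shows it, also did not separate the substrates. The mean over 22 neuron markers was 9.28, 9.22 and 9.19 on CNT 1, 2 and 3 and 9.17, 9.37 and 9.35 on control 1, 2 and 3. Taken relative to the neuron markers of the same array, the synaptic gene mean was 0.04 higher in CNT, with -1.17, -1.10 and -1.07 on the CNT arrays and -1.10, -1.18 and -1.17 on the control arrays. Neither list separated the substrates. CNT 3 and control 3 were the 2 highest arrays for 7 of the 22 neuron markers and the 2 lowest for 6, so these markers also went both ways. They were the 2 highest for 4 of 17 fibroblast and meningeal, 2 of 9 endothelial and 2 of 5 Schwann cell markers and for 0 of 14 astrocyte, 0 of 15 oligodendrocyte and 0 of 15 microglia markers, beside the 11.5% of all genes.

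The marker lists of other cells also differed between arrays. Relative to the mean of the 6 arrays, the oligodendrocyte list stood at 0.54, 0.26 and -0.56 on CNT 1, 2 and 3 and at -0.15, 0.34 and -0.42 on control 1, 2 and 3, lowest on the third arrays. The astrocyte list ran from -0.29 to 0.16 in CNT and from -0.19 to 0.16 in control cultures, also lowest on the third arrays. The fibroblast and meningeal list was lowest on CNT 2 (-1.22) and ran from 0.19 to 0.56 on the control arrays, with all 17 genes lower in CNT by their means, and the microglia list was lowest on control 1 (-0.67), with 14 of 15 genes higher in CNT. Defining markers of these cells were well expressed on every array, and Gfap of astrocytes ran from 13.70 to 14.38 in CNT and from 13.87 to 14.35 in control cultures. Their part in the values of the synaptic genes was not tested.

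**Figure D5:**
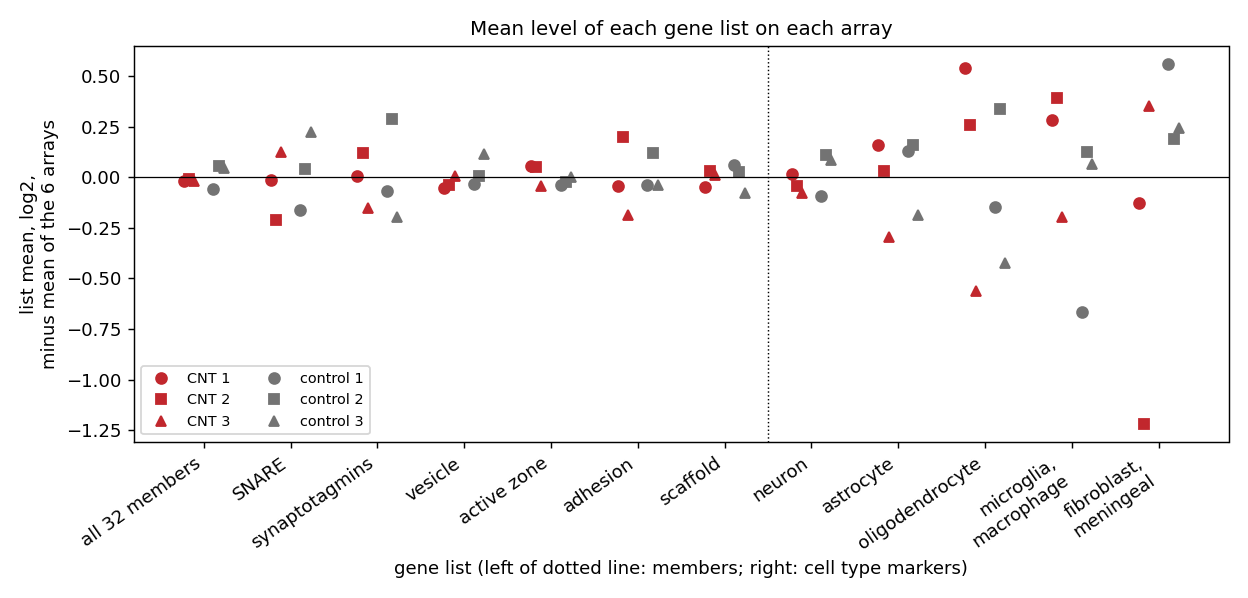
Mean log2 level of each gene list on each array minus the mean of the 6 arrays, for the 32 synaptic genes and their role groups (left of the dotted line) and for cell type markers (right), with CNT arrays in red left of control arrays in grey and 1 symbol for each replicate number. The mean over all synaptic genes, which go both ways, stays between -0.06 and 0.06, and the fibroblast and meningeal list reaches -1.22 on CNT 2.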

How the data were processed

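Expression was measured on 6 Affymetrix rat expression arrays, 3 CNT and 3 control, from 100 ng of total RNA each. The authors deposited log2 values made with RMA, whose version is not given in the sources used here. Their own comparison used EntrezGene custom files and the rank product, which was not run because its false-positive estimate permutes genes. By that comparison the study reported genes that differ between the substrates, where limma called none. Control probe sets (57) and those paired with several genes (436) or none (9780) were left out, and the probe set of highest mean was kept for each of 14217 genes. The groups were set against each other in limma (version 3.58.1, R 4.3.3), using lmFit and eBayes, and p-values were adjusted by Benjamini-Hochberg across the whole array, with 0.05 as the threshold. The number of arrays limits the precision, and an exact permutation test of 3 against 3 cannot go below 0.1.

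The members and gene lists were chosen with earlier results of these data known. By rule, all members were named, and arrays were given singly for members with separated groups, disagreeing probe sets, or the smallest p or largest difference of a role group. The other members with values on each array, and the second probe sets of Syt4 and Rab3a, were chosen after their values were seen. The 22 neuron markers, the other cell markers and the further synaptic genes are textbook lists. Promoters came from RefSeq GRCr8. Alternatives covered variance moderation, array weights, a replicate block, probe set choice, a filter on dim genes, scaling, covariates and leaving arrays out. The fit was tested on simulated data.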

Additional observations from a re-analysis of the deposited data

How the results depend on the processing

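No member passed the test under any alternative fitted, and the replicate block gave 0 members called with a synaptic gene mean difference of -0.03. Whether the replicate numbers pair the cultures is not known. Deviations of same-numbered arrays correlated at -0.13, 0.36 and 0.51 for numbers 1, 2 and 3, and those of CNT 1 and control 2 at 0.68, so the numbers were not used as pairs. Without the dimmest 30% of genes 13 members were left, 5 of them higher in CNT, with a mean difference of -0.083 and a median of -0.056; fewer genes make up these values, since 19 members are among the dimmest. With every probe set by itself 32 of 60 were higher in CNT. The median difference was -0.031 without control 1 and CNT 2, the arrays of largest beta-actin difference, and 0.074 within the arrays of lower spike signal, an alternative added after seeing the data, as were both fits that use the spike sets and the one without control 3 and CNT 3. The cause was not tested. Relative to neuron markers the mean difference was 0.038.

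Leaving out 1 array at a time, the median ran from -0.041 (without control 1) to 0.015 (without CNT 3), the mean difference from -0.066 (without control 1) to -0.008 (without control 2) and the number of members higher in CNT from 14 to 17. Between 0 and 11 members changed direction under a single alternative. Snap25 ran from -0.83 within the arrays of higher spike signal to 0.96 without control 3. Syt4 differed by -0.70 with the mean of its probe sets. With array weights Sv2b differed by -0.77 and Nlgn2 by -0.60. Each of these values is beyond 1.5-fold. With quantile normalization, cyclic loess and median centring the mean difference was -0.071, -0.075 and -0.067. As 19 of the 32 members are among the dimmest genes of the array, small changes in them may not have been detectable.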
